A study of Mus musculus with 30 samples.

Results

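The MHC class II genes of the mouse liver were followed across 10 groups of offspring. The set held 7 genes, taken by symbol from a count table of 17990 genes: H2-Aa, H2-Ab1 and H2-Eb1, which encode chains of the classical class II molecules, Cd74, the invariant chain, Ciita, the class II transactivator, and H2-DMa and H2-DMb1, which encode the H2-DM peptide exchanger. The rule names the genes and uses no threshold on their values, though they were picked with earlier results of these data known, and all 7 passed the filter on low counts in each fit. Liver RNA was sequenced from offspring of ICR mice, an outbred stock, at 10 weeks of age, with 3 libraries in each of 5 groups per sex. Each library is taken here as a single liver. The compound was in the drinking water of 8 dams a group at 10 ng/mL, a dose of 5 µg per kg body weight per day, from pregnancy to weaning (about 40 days). The compounds were bisphenol S (BPS), a diphenol built around a sulfone bridge, 2,4-BPS, its positional isomer with a phenol hydroxyl moved toward the bridge, BPSIP, in which an isopropyl ether replaces a hydroxyl of BPS, and 17β-estradiol (E2), the natural oestrogen. All dams, those of the control groups included, also received 0.001% ethanol, so the control is a solvent control. Offspring came from litters of different dams per group and sex, but the labels do not tie a liver to a dam. P-values therefore rest on the spread between livers within groups, and spread between litters cannot be separated. With 3 livers per group, that spread was estimated over all groups of a fit together, with information shared across genes.

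Class II molecules present peptides from taken-up protein to CD4 T cells, and in liver they are found mainly on Kupffer cells, dendritic cells and B cells. An alpha and a beta chain pair in the endoplasmic reticulum around the invariant chain Cd74, which is later cut by cathepsins, and H2-DM then trades its remnant for a peptide. Transcription of all these genes depends on Ciita, a coactivator that binds no DNA itself but docks on a complex of RFX, CREB and NF-Y factors over the X and Y boxes of class II promoters, and interferon gamma raises Ciita.

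The promoters of 3 members are shown because they carry the Y box, the site of NF-Y, and so make the shared control region visible. Each line gives bases 125 to 26 before the transcript start in RefSeq on GRCm38.p6, 5′ to 3′ on the gene's strand, with the letters GATTGG of the Y box core (CCAATC on the other strand) and AGCAAC of the X1 box core in capitals.
H2-Aa (chr17:34287849-34287948, minus strand): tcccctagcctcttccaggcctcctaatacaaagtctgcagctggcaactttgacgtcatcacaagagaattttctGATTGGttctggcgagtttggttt
H2-Eb1 (chr17:34305742-34305841, plus strand): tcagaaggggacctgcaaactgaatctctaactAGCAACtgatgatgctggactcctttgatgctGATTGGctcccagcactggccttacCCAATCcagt
H2-DMb1 (chr17:34153066-34153165, plus strand): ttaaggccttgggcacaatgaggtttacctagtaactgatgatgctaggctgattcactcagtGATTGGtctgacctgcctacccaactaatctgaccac

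The core GATTGG lay at bases -49 to -44 of H2-Aa, -60 to -55 of H2-Eb1 and -62 to -57 of H2-DMb1, counted from the transcript start, and H2-Eb1 held a further copy on the other strand at -35 to -30. Searched on both strands of the RefSeq promoter windows, GATTGG was in 14.6% of 32851 promoters, so its presence alone is common. AGCAAC, found in 12.2% of promoters, was matched in H2-Eb1 at -92 to -87. Of the 2 starts listed for H2-DMa, 1 held GATTGG at -199 to -194. A match is a run of letters, not a measured binding site, and promoters of H2-Ab1, Ciita and Cd74 are not shown.

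The total count per library ran from 29711711 to 37719069. A gene's level is stated in CPM, its count scaled to the library total with TMM factors, where 1 count in the smallest library is 0.0337 CPM, and levels of different genes are compared as FPKM, which divide by gene length. Differences between groups are log2 fold changes ± SE from edgeR's quasi-likelihood test, called at a Benjamini-Hochberg adjusted p under 0.05 over all genes of a fit. Hepatocyte markers summed to 73560 to 143000 CPM over the groups, and Y-linked genes to at most 0.543 CPM in a female library. The 3 libraries labelled male control stood apart: their Y-linked sum was 88.4 ± 6.01 CPM (SD, n = 3), below the group means of 138 to 168 CPM in exposed males. In the libraries labelled male control the female-predominant liver genes A1bg and Cyp2b9 were at 1470 and 195 CPM, between female control (2540 and 563 CPM) and exposed males (1.42 to 3.88 and 0.399 to 1.01 CPM). Each result for males is therefore given against these libraries and also among the 4 exposed groups without them. Whether each of the libraries labelled male control holds RNA of a single male liver was not tested.

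**Figure D1:**
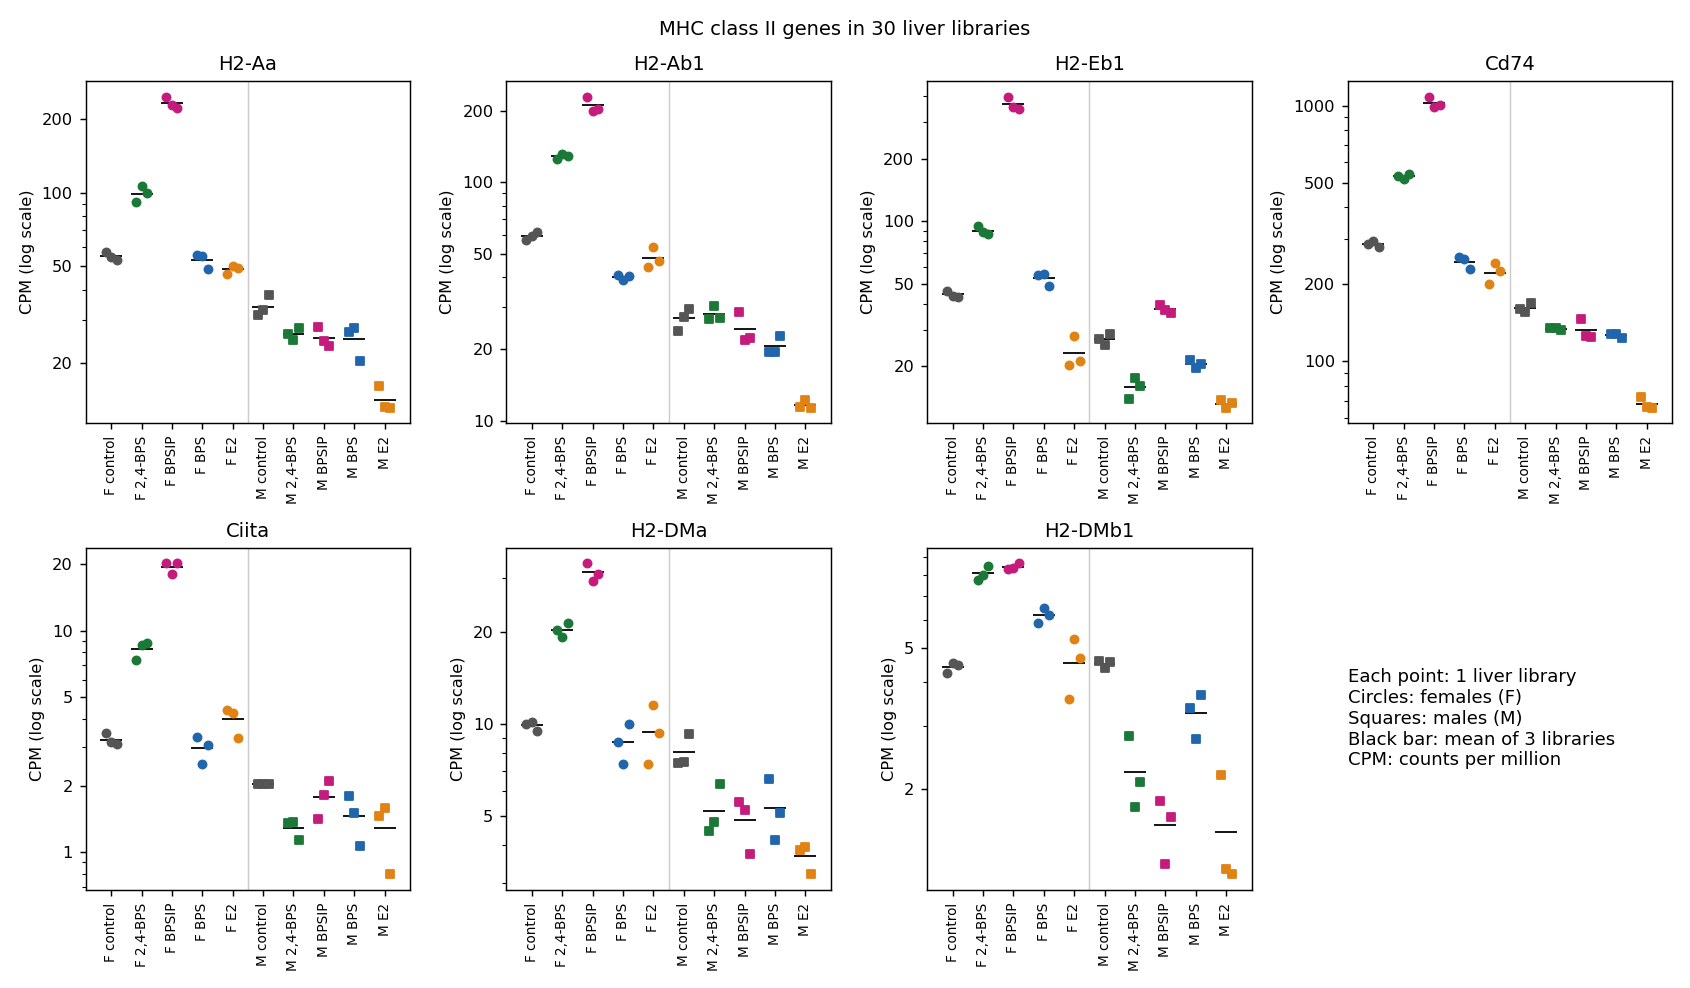
Level of each class II gene in CPM (log axis) in 30 liver libraries, with 3 points per group for single livers and a bar for the group mean; circles are females and squares males. In every panel the female BPSIP group has the highest mean and the male E2 group the lowest.

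In females, all 7 genes rose under 2,4-BPS and under BPSIP, and BPSIP was above 2,4-BPS by the test between the compounds in 6 of them. Of all genes tested, 10.9% were called higher under 2,4-BPS and 19.4% under BPSIP. The median change of the 7 genes was 1.02 (log2) under 2,4-BPS and 1.84 under BPSIP, against 0.0034 and -0.014 over all genes tested. No member was lower under 2,4-BPS, where 8.42% of all genes were. The libraries of all 7 members lay above control without overlap under both compounds, as did those of 18.8% and 24.9% of all genes. BPS and E2, at the same dose, moved fewer of the 7 members and by less. In bulk liver RNA, fewer cells of a type and less RNA per cell cannot be told apart.

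Among the classical chains, H2-Aa encodes the alpha chain of I-A. It was at 57.3, 54.3 and 53.0 CPM in the 3 female control livers, at 91.3, 106 and 99.4 under 2,4-BPS and at 248, 229 and 222 under BPSIP. Both exposed groups lay wholly above control, and every BPSIP liver lay above every 2,4-BPS liver. The changes were 0.86 ± 0.06 (adjusted p 4.38e-13) and 2.08 ± 0.06, or 1.80-fold and 4.24-fold. Under BPS it was at 55.5, 55.0 and 48.5 CPM, which overlapped control, with a change of -0.04 ± 0.06 (95% interval -0.17 to 0.09, adjusted p 0.750). Under E2 it was at 46.6, 49.96 and 49.0 CPM, below all control livers. That E2 change of -0.18 ± 0.06 had an adjusted p of 0.0404, which rose to 0.0534 to 0.178 when any of the 3 control livers or E2 replicate 1 or 3 was left out.

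H2-Ab1, the beta chain that pairs with H2-Aa, was at 57.3, 59.8 and 62.1 CPM in female control, at 125, 131 and 129 under 2,4-BPS and at 229, 199 and 203 under BPSIP. The 3 groups did not overlap, and the changes were 1.11 ± 0.06 and 1.82 ± 0.06 (2.15-fold and 3.53-fold). H2-Ab1 fell under BPS, to 41.0, 39.0 and 40.4 CPM (-0.56 ± 0.07, adjusted p 2.58e-08). It also fell under E2, to 44.2, 53.7 and 46.9 CPM (-0.31 ± 0.06, adjusted p 3.42e-04). All 3 BPS livers lay below all 3 E2 livers, and both groups lay below control.

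H2-Eb1, the beta chain of the I-E molecule, had the largest change of the set under BPSIP and under E2. Its libraries were at 46.3, 43.8 and 43.2 CPM in female control, 94.4, 88.9 and 86.7 under 2,4-BPS and 398, 354 and 347 under BPSIP. The BPSIP level was 8.24 times the control level (3.04 ± 0.09, adjusted p 2.19e-19), against 2.03 times under 2,4-BPS (1.02 ± 0.08). Under E2 it fell to 20.2, 28.1 and 21.3 CPM (-0.94 ± 0.09, adjusted p 8.17e-09). Under BPS it was at 55.0, 55.7 and 48.9 CPM, above control by 0.27 ± 0.08 (adjusted p 0.0279). That small rise passed narrowly: the adjusted p was 0.112 or 0.126 without BPS replicate 1 or 2, and 0.0899 or 0.103 without control replicate 2 or 3. Thus H2-Ab1 fell and H2-Eb1 rose in the same BPS livers. The gene of the I-E alpha chain, H2-Ea, is not analysed here.

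Cd74, which shields the peptide groove and steers the chains to endosomes, was the most abundant member. It was at 287, 295 and 279.7 CPM in female control, 529, 515 and 541 under 2,4-BPS and 1085, 992 and 1005 under BPSIP. These groups were far apart relative to their spread, and the changes were 0.89 ± 0.06 and 1.84 ± 0.06. Under BPS the livers were at 256, 251 and 229 CPM and under E2 at 201, 241 and 225. Both groups lay below control and passed the test (-0.22 ± 0.06, adjusted p 0.00669, and -0.37 ± 0.06, adjusted p 4.34e-06), the first with an adjusted p of 0.0821 without BPS replicate 3. Per length, Cd74 in female control was at 213 ± 7.23 FPKM (SD, n = 3), against 51.1 ± 2.02 for H2-Aa, 52.6 ± 2.08 for H2-Ab1 and 28.0 ± 1.03 for H2-Eb1.

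Ciita, the transactivator of the other members, was scarce but rose with them in females under 2,4-BPS and BPSIP. Female control livers were at 3.46, 3.14 and 3.07 CPM, 2,4-BPS livers at 7.35, 8.59 and 8.80 and BPSIP livers at 20.1, 18 and 20.1. The groups did not overlap, and Ciita rose 2.56-fold under 2,4-BPS (1.36 ± 0.15) and 6.02-fold under BPSIP (2.59 ± 0.15, adjusted p 4.93e-17). Under BPS it was at 3.32, 2.51 and 3.04 CPM and under E2 at 4.39, 4.26 and 3.29. Both overlapped control, with 95% intervals of -0.42 to 0.20 and -0.0026 to 0.60 (log2) around the change. In 2,4-BPS livers Ciita had the largest fold change of the 7 genes, and under BPSIP a larger one than every member but H2-Eb1.

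The H2-DM pair moved less evenly. H2-DMa, its alpha chain, was at 9.97, 10.2 and 9.48 CPM in female control, 20.3, 19.2 and 21.3 under 2,4-BPS and 33.5, 29.3 and 31.0 under BPSIP. It rose by 1.05 ± 0.12 and 1.66 ± 0.12, with no overlap among the 3 groups. Under BPS (8.73, 7.40 and 9.97 CPM) and E2 (7.39, 11.5 and 9.35 CPM) its libraries overlapped control, with intervals of -0.41 to 0.07 and -0.31 to 0.16. H2-DMb1, a beta chain, was at 4.25, 4.53 and 4.46 CPM in control, 7.78, 8.04 and 8.50 under 2,4-BPS and 8.34, 8.39 and 8.66 under BPSIP. Here the exposed groups overlapped each other while both lay above control (0.88 ± 0.15 and 0.94 ± 0.15). Under BPS it was at 5.89, 6.47 and 6.17 CPM and rose by 0.49 ± 0.15 (adjusted p 0.0185; 0.0715 without BPS replicate 2, 0.0657 without control replicate 1), and under E2 it was at 3.57, 5.28 and 4.69 CPM, overlapping control.

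H2-DMb1 must be read with its neighbour H2-DMb2, another beta chain of H2-DM. Of the 50-base stretches of H2-DMb1 transcripts, 27.2% also occur in H2-DMb2. Reads from these stretches could be assigned to either gene or dropped, and how the authors' counting handled them is not stated. H2-DMb2 was at 3.94 ± 1.18 CPM in female control (SD, n = 3) and rose by 0.92 ± 0.18 under 2,4-BPS and 1.69 ± 0.18 under BPSIP. Under BPS it fell by 1.39 ± 0.21 (log2, adjusted p 3.39e-06) while H2-DMb1 rose. Summed, the pair was at 8.36 ± 1.06 CPM in control, 15.5 ± 1.16 under 2,4-BPS, 21.2 ± 1.22 under BPSIP, 7.66 ± 0.235 under BPS and 7.77 ± 1.02 under E2. On the sum, 2,4-BPS and BPSIP livers were separate, and BPS and E2 libraries reached into the control range. H2-DMa carries a further limit: its deposited FPKM rests on a length of 8325 bases, against 3448 bases of exons in GENCODE M21, so its FPKM reads low beside the chains. For H2-Aa and H2-Ab1 the lengths were 1128 and 1193 bases, against 3798 and 2568, so the order of levels between genes depends on the length used, while a ratio of the same genes between groups does not. H2-DMa also overlaps Brd2 on the opposite strand, and whether reads were counted by strand is not stated.

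**Figure D2:**
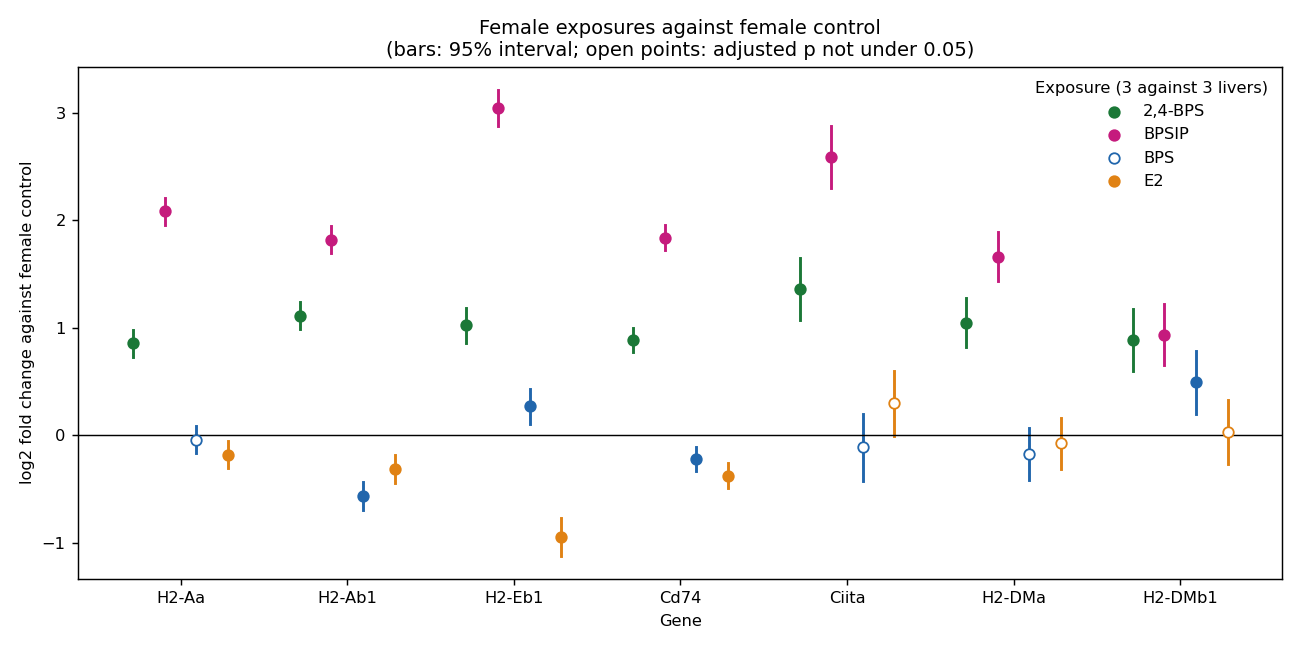
Log2 fold change of each class II gene against female control for the 4 exposures, 3 against 3 livers, with bars for the 95% interval and open points where the adjusted p was not under 0.05. All points for 2,4-BPS and BPSIP lie above 0, and those for BPS and E2 lie between -0.94 and 0.49.

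In counts of members, BPS raised 2 (H2-Eb1 and H2-DMb1) and lowered 2 (H2-Ab1 and Cd74), beside 9.32% and 7.5% of all genes. E2 lowered 4, the 3 classical chains and Cd74, beside 10.6% of all genes, and raised none (10.4%). A joint test over the 5 female groups called all 7 members, as it did 58.5% of all genes. The 4 exposures were set against the same 3 control livers and share their chance values, so the comparisons are not independent. Leaving out any single liver kept all 7 members higher under 2,4-BPS and under BPSIP.

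The compounds were next compared with each other at their common dose, in 6 pairs per sex, which leaves the control livers out. In females, 2,4-BPS, the positional isomer, exceeded BPS in 6 of 7 members (10.2% of all genes were higher and 9.23% lower), by 0.75 (H2-Eb1) to 1.68 (H2-Ab1) on the log2 scale. H2-DMb1 differed by 0.39 ± 0.14 (interval 0.11 to 0.67, adjusted p 0.0544), although its libraries did not overlap. BPSIP, the isopropyl ether, exceeded BPS in all 7 (19.2% of all genes), from 0.44 ± 0.14 for H2-DMb1 to 2.77 ± 0.09 for H2-Eb1, and only the H2-DMb1 call was lost without a single liver (adjusted p 0.0507 without BPS replicate 1). BPSIP also exceeded 2,4-BPS in 6 of 7 (17.3% of all genes were lower under 2,4-BPS). The 2,4-BPS level of H2-Eb1 was 0.246 of the BPSIP level, that of Cd74 0.514 and that of H2-DMa 0.649. For H2-DMb1 the 2 compounds differed by -0.05 ± 0.14, with an interval of -0.33 to 0.22.

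Against E2, both 2,4-BPS and BPSIP were higher in all 7 members (16.1% and 19.7% of all genes). The widest gap of any female pair was H2-Eb1 under BPSIP against E2, 15.8-fold (3.99 ± 0.09). Between BPS and E2, 4 members differed: H2-Eb1 (1.21 ± 0.09), H2-DMb1 (0.47 ± 0.15) and Cd74 (0.16 ± 0.06) were higher under BPS (13.4% of all genes) and H2-Ab1 lower (-0.25 ± 0.07; 12.2%). The Cd74 call was lost without BPS replicate 1 or 2 or E2 replicate 1 or 3 (adjusted p 0.0772 to 0.391), and the H2-DMb1 call without BPS replicate 2 or E2 replicate 1 (0.0662 and 0.169). Ciita was -0.41 ± 0.16 (adjusted p 0.0501), and passed without BPS replicate 1 or E2 replicate 3 (0.0363 and 0.0183). When the p of each member was adjusted over its 6 pairs instead, 6 members differed between 2,4-BPS and BPSIP, 7 in each of the 4 other pairs with 2,4-BPS or BPSIP, and 6 between BPS and E2.

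The chains did not keep a fixed ratio to each other. Per length, H2-Eb1 over H2-Ab1 was 0.578, 0.524 and 0.497 in the 3 female control livers, 0.538, 0.484 and 0.480 under 2,4-BPS and 1.24, 1.27 and 1.22 under BPSIP. It was 0.959, 1.02 and 0.865 under BPS and 0.327, 0.374 and 0.324 under E2, so 2,4-BPS stayed near control, BPSIP and BPS lay above it and E2 below. In males BPSIP again had the highest mean and 2,4-BPS the lowest: the ratio was 0.997, 1.23 and 1.17 in male BPSIP and 0.373, 0.415 and 0.429 in male 2,4-BPS. In male BPS it was 0.788, 0.730 and 0.647, in male E2 0.860, 0.740 and 0.841 and in the libraries labelled male control 0.817, 0.668 and 0.694. Male E2 thus lay above male 2,4-BPS, the reverse of the female order. H2-Aa over H2-Ab1 varied less, from 0.813 ± 0.0419 in female 2,4-BPS to 1.40 ± 0.113 in female BPS.

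The ratio of H2-DMb2 to H2-DMb1 was higher under BPSIP than under BPS in both sexes. It was 1.28, 1.53 and 1.30 in female BPSIP and 0.829, 1.52 and 0.873 in male BPSIP, and 0.267, 0.204 and 0.190 in female BPS and 0.234, 0.403 and 0.121 in male BPS. BPSIP and BPS livers did not overlap in either sex. The means for 2,4-BPS and E2 changed order between the sexes, 0.841 ± 0.202 and 0.670 ± 0.104 in females and 0.608 ± 0.153 and 0.777 ± 0.313 in males, and male E2 overlapped male BPSIP. Cd74 over the summed classical chains had its lowest mean of each sex in BPSIP, 1.21 ± 0.0292 in females and 1.43 ± 0.00582 in males, against 1.62 ± 0.0489 in female control and 1.59 ± 0.00807 in male E2 (SD, n = 3). With 3 livers against 3, an exact two-sided permutation test cannot go below p = 0.1, so these ratios are given without a test. ICR mice are outbred and class II chain genes are among the most variable in the genome; alleles were not read here, and their part in the ratios was not tested.

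**Figure D3:**
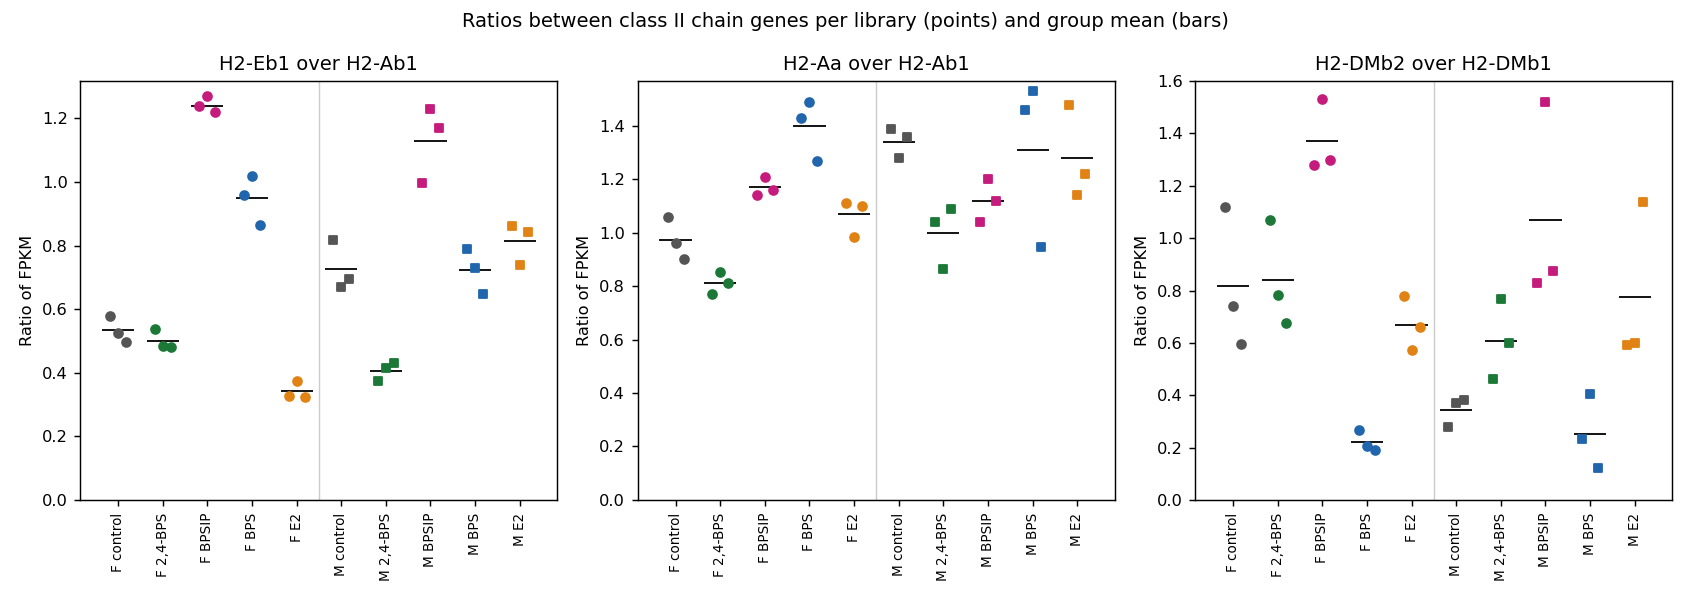
Ratios of FPKM between class II chain genes per library (points, 3 livers per group) with group means as bars; circles are females and squares males. H2-Eb1 over H2-Ab1 is highest in the BPSIP groups of both sexes (means 1.24 and 1.13), and H2-DMb2 over H2-DMb1 is lowest in female and male BPS (0.220 and 0.253).

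In exposed males the classical chains and Cd74 had their lowest levels under E2, and H2-Eb1 its highest under BPSIP. Cd74 was at 135, 135 and 133 CPM under 2,4-BPS, 147, 126 and 124 under BPSIP, 127, 127 and 124 under BPS and 72.5, 66.2 and 65.7 under E2. The E2 livers lay below all other exposed males. H2-Aa had the same layout, at 26.2, 24.8 and 27.9 CPM under 2,4-BPS, 28.1, 24.7 and 23.6 under BPSIP, 26.8, 27.9 and 20.3 under BPS and 16.02, 13.2 and 13.1 under E2. H2-Ab1 was at 26.6, 30.3 and 27.0 CPM under 2,4-BPS, 28.5, 21.8 and 22.2 under BPSIP, 19.5, 19.3 and 22.7 under BPS and 11.4, 12.2 and 11.3 under E2. E2 stood below the other 3 compounds for each of these genes, and among those 3 the 2,4-BPS and BPS livers did not overlap for H2-Ab1. H2-Eb1 was at 13.9, 17.6 and 16.2 CPM under 2,4-BPS, 39.7, 37.4 and 36.2 under BPSIP, 21.5, 19.7 and 20.5 under BPS and 13.7, 12.7 and 13.3 under E2. Its 4 groups did not overlap, with BPSIP highest. Ciita spanned 0.796 to 2.10 CPM, H2-DMa 3.21 to 6.60 and H2-DMb1 1.15 to 3.67 over the 12 exposed male livers.

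A joint test over the 4 exposed male groups, which does not use the libraries labelled male control, called 5 of 7 members (54.7% of all genes). Ciita (adjusted p 0.553) and H2-DMa (0.0846) did not pass, though H2-DMa did without 2,4-BPS replicate 1 or BPS replicate 2 (0.0492 and 0.0327). E2 was the low group: 6 members were higher under BPS than under E2 (17% of all genes), 4 under 2,4-BPS (13.6%) and 4 under BPSIP (12.4%). Cd74 differed by 0.86 ± 0.05, 0.96 ± 0.05 and 0.95 ± 0.05 in these pairs, and H2-Ab1 by 0.79 ± 0.10, 1.25 ± 0.10 and 1.04 ± 0.10. The call of H2-DMa in BPS against E2 (adjusted p 0.0383) was lost without BPS replicate 1 or 3 or E2 replicate 1 or 3 (0.0506 to 0.282). That of H2-Eb1 in 2,4-BPS against E2 (0.0381) was lost without 2,4-BPS replicate 2 or 3 or E2 replicate 2 or 3 (0.0659 to 0.198).

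Between the bisphenols, H2-Eb1 was the member that set male BPSIP apart: it was 2.38 times its 2,4-BPS level (15.5% of all genes were lower under 2,4-BPS) and 1.84 times its BPS level (0.90 ± 0.09; 18.6%). H2-DMb1 was lower under BPSIP than under BPS (-1.03 ± 0.28; 16.8%), while H2-Ab1 was higher by 0.26 ± 0.10 (adjusted p 0.0320), a call lost without BPSIP replicate 1 or BPS replicate 1 or 2 (0.135 to 0.440). Between 2,4-BPS and BPS, H2-Ab1 was higher by 0.47 ± 0.10 (15.2%) and H2-Eb1 lower (-0.35 ± 0.09; 12.3%) under the isomer. No other member passed in these 3 pairs, and the group means of Cd74 were 134 ± 1.21, 132 ± 12.6 and 126 ± 2.08 CPM (SD, n = 3).

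Against the libraries labelled male control the picture was of lower levels. These libraries were at 159.9, 155 and 169 CPM for Cd74, 27.2, 25.4 and 28.7 for H2-Eb1 and 4.59, 4.39 and 4.55 for H2-DMb1. Under 2,4-BPS 5 members were lower (19.4% of all genes), under BPSIP 4 (17.4%), under BPS 5 (22.7%, with 20.6% higher) and under E2 6 (16.4%). H2-Eb1 under BPSIP was the member that was higher (0.49 ± 0.09, adjusted p 5.82e-06; 17.4%). Under E2, Cd74 changed by -1.23 ± 0.05 and H2-DMb1 by -1.57 ± 0.27; under BPS, Cd74 changed by -0.37 ± 0.05. H2-DMa was lower under all 4 exposures, and 2 of these calls were lost without a single library, with an adjusted p of 0.0513 for 2,4-BPS without control replicate 3 and 0.0686 for BPS without BPS replicate 2.

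These directions depended on the reference. Set against the mean of the other 3 exposed male groups, without the libraries labelled male control, 3 members were higher and 1 lower under 2,4-BPS, 4 and 0 under BPSIP, 3 and 0 under BPS, and 0 and 5 under E2. By construction these values of a gene cancel out over the exposures, so the low E2 group pushes the other groups upward. They rank the compounds and do not measure a change against unexposed males. In another setting each exposed male library was mixed with female control counts at a share of 41.8%. This share brings the mean Y-linked sum over all exposed males to about that of the libraries labelled male control. Single groups, at 138 to 168 CPM before mixing, can fall to either side of it. Other genes that differ between the sexes were not used to set the share. The same female control libraries enter every comparison, and their members sum to 464 CPM, against group means of 114 to 228 CPM in exposed males. Mixing therefore raises the members' sum by construction, and the calls after it do not measure an effect of exposure. Then 3 and 1 were called under 2,4-BPS, 3 and 1 under BPSIP, 3 and 0 under BPS, and 1 and 2 under E2. Shares of all genes called are not given for this setting or for the reference of other exposures. The counts of members cannot be set against a background there. The Cd74 change under 2,4-BPS was -0.27 against these libraries, 0.36 against the other exposures and 0.29 after mixing. Under E2, 5 members were lower against the other exposures as well, and 2 after mixing.

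Within each exposure, which needs no control library, females exceeded males in all 7 members. Of all genes, 23.9% were higher in females under 2,4-BPS, 26.1% under BPSIP, 19.4% under BPS and 17.3% under E2. The median female excess (log2) of the members was 0.97 under BPS, 1.63 under E2, 1.98 under 2,4-BPS and 3.13 under BPSIP, against -0.0012 to 0.020 over all genes. The gap was widest for Ciita under BPSIP, 10.9-fold (3.45 ± 0.20), followed by H2-Eb1 at 9.70-fold. For 5 of 7 members all 15 female livers lay above all 12 exposed male livers, as 3.11% of genes did. The exceptions were H2-Eb1, whose female minimum of 20.2 CPM (E2) lay below the male maximum of 39.7 (BPSIP), and H2-DMb1, at 3.57 against 3.67 CPM. Female control against the libraries labelled male control differed in 5 members (14.6% of all genes), by 1.15 ± 0.08 for H2-Ab1 and 0.66 ± 0.21 for Ciita, while H2-DMa (0.29 ± 0.15) and H2-DMb1 (-0.03 ± 0.19) did not pass.

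**Figure D4:**
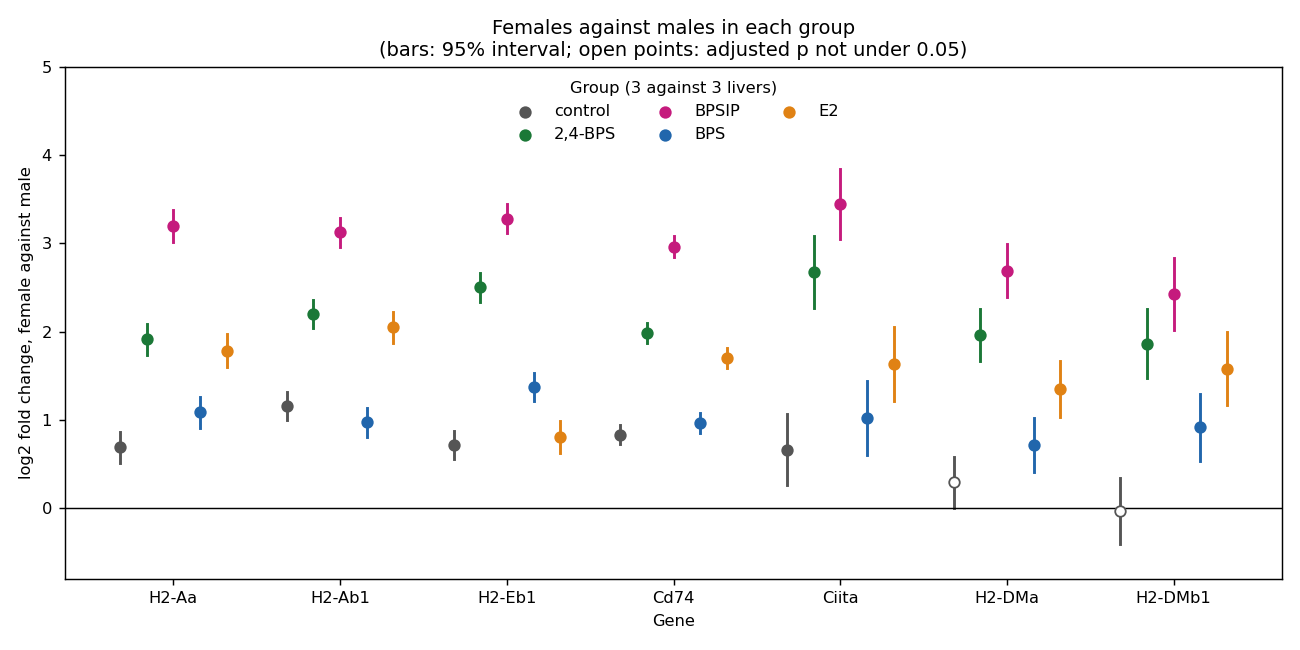
Log2 fold change of females against males for each class II gene in the 5 groups, 3 against 3 livers, with bars for the 95% interval and open points where the adjusted p was not under 0.05. BPSIP points lie highest for every gene, between 2.43 and 3.45, and the control points, which use the libraries labelled male control, lie lowest for every gene but H2-Ab1.

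The sex difference of an exposure effect, the female change against control minus the male one, was tested in a fit of 30 libraries. It was called in all 7 members for 2,4-BPS (18% of all genes) and BPSIP (19%), in 3 for BPS (16%) and in 6 for E2 (8.93%), each time with the female change the higher. For Cd74 it was 1.15 ± 0.08 under 2,4-BPS, 2.13 ± 0.08 under BPSIP and 0.87 ± 0.08 under E2. The call of Ciita for E2 (adjusted p 0.0153) was lost without male E2 replicate 3 (0.111). These values include the libraries labelled male control. With the other 3 exposures of each sex as reference in their place, BPSIP had 7 members with the higher female change and 2,4-BPS had 2, while BPS had 7 and E2 4 with the lower one. This reference sets an exposure against other compounds, not against control, and shares over all genes are not given for it. Its values for a gene cancel out over the exposures, so a high BPSIP value brings lower ones elsewhere and the counts are not separate results. For BPSIP all 7 members were called in the same direction with either reference, though the 2 references ask different questions.

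The order of the 10 group means ran from female BPSIP at the top to male E2 at the bottom for every member. The ratio of the highest to the lowest mean was 27.7 for H2-Eb1, 18.1 for H2-Ab1, 16.5 for H2-Aa, 15.1 for Cd74 and for Ciita, 8.48 for H2-DMa and 5.62 for H2-DMb1. Female 2,4-BPS came next to the top for all 7, with ranges apart from BPSIP except for H2-DMb1. Of the 9 steps between neighbours in that order, the libraries did not overlap in 7 for H2-Eb1, 6 for H2-Ab1 and for Cd74, 5 for H2-Aa and 3 for each of Ciita, H2-DMa and H2-DMb1. For H2-Aa the overlapping neighbours were female control with female BPS, female BPS with female E2, and the male 2,4-BPS, BPSIP and BPS groups. Over the 10 group means of log2 CPM, Pearson's r between members ran from 0.742 (H2-Eb1 with H2-DMb1) to 0.997 (H2-Aa with Cd74). The points share library depth and the sex of the mouse, and r is given as a description only.

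Other genes of the pathway were taken from lists. Of 13 measured class II partners, 7 were higher under 2,4-BPS and 7 higher and 2 lower under BPSIP in females, with medians of 0.52 and 0.63 (log2). The shares over all genes were 10.9% higher under 2,4-BPS, and 19.4% higher and 19.2% lower under BPSIP. Ctss, the cathepsin that trims the invariant chain in antigen-presenting cells, rose by 0.58 ± 0.06 and 0.92 ± 0.06 in these groups, from 100 ± 2.93 CPM in control. Ctsl, a cathepsin of most cells, was at 0.03 ± 0.05 (adjusted p 0.746) under 2,4-BPS and fell under BPSIP (-0.36 ± 0.05). The chain H2-Eb2 was near the counting limit, with 8 counts summed over the female control livers (mean 0.0703 CPM) and 80 over the BPSIP livers. It passed the filter on low counts through the BPSIP livers, where it was high, so no test result is drawn from it. The counts and medians of partners above take in every tested partner, H2-Eb2 included, and are given as a description only. H2-Oa and H2-Ob, the chains of the H2-DM inhibitor H2-DO, did not pass in any female exposure, and their female group means lay between 0.415 and 1.61 CPM. Marchf8, a ubiquitin ligase that removes class II molecules from the surface, fell under BPSIP in females (-0.26 ± 0.06) and was higher in male BPSIP than in the libraries labelled male control (0.44 ± 0.05).

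Of 7 genes of the RFX, NF-Y and CREB complex that docks Ciita on DNA, 1 was higher under 2,4-BPS and 2 under BPSIP in females, beside 10.9% and 19.4% of all genes, namely Nfya (0.63 ± 0.12) and Nfyb (0.36 ± 0.08) for the latter, with medians of 0.10 and 0.20. On the interferon gamma axis, 5 of 12 tested genes were higher and 1 lower under 2,4-BPS, and 6 and 1 under BPSIP. Of all genes, 8.42% were lower under 2,4-BPS and 19.2% under BPSIP. Irf1, which binds the Ciita promoter, rose under 2,4-BPS (0.82 ± 0.06) and BPSIP (1.06 ± 0.06), and under BPS and E2 was at 0.04 ± 0.06 and 0.10 ± 0.06 (adjusted p 0.775 and 0.302). Ifng, the cytokine gene, was at 0 counts in male 2,4-BPS and male BPSIP and had counts in the other groups.

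Among 11 tested genes of T cell help and costimulation, 2 were higher under 2,4-BPS and 7 under BPSIP in females. The shares of all genes were 10.9% and 19.4%. Cd274, the inhibitory ligand PD-L1, rose under 2,4-BPS (0.85 ± 0.14), BPSIP (2.10 ± 0.13) and E2 (1.27 ± 0.13). Cd4, the T cell coreceptor for class II, rose under BPSIP (1.76 ± 0.24) from 2.24 ± 0.489 to 7.56 ± 0.676 CPM, and was at 0.08 ± 0.25 (adjusted p 0.877) under 2,4-BPS. Class I presentation moved too: of 11 genes, 10 were higher under 2,4-BPS, 10 higher and 1 lower under BPSIP, 6 higher and 1 lower under BPS and 4 higher under E2. Beside these stand 10.9% of all genes higher under 2,4-BPS, 19.4% under BPSIP (19.2% lower), 9.32% under BPS (7.5% lower) and 10.4% under E2. Tap1, a subunit of the peptide transporter, rose by 0.86 ± 0.08 under 2,4-BPS, 1.22 ± 0.08 under BPSIP and 0.73 ± 0.08 under E2. H2-K1, a class I heavy chain, rose under 2,4-BPS (0.67 ± 0.06) and fell under BPSIP (-0.17 ± 0.06), while H2-D1 rose under both (0.51 ± 0.05 and 0.69 ± 0.05).

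Markers of cells that can carry class II molecules were counted next. In females 12 of 14 macrophage and Kupffer cell genes were higher under 2,4-BPS and 12 under BPSIP, with medians of 0.42 and 0.68 (log2), while 1 was higher and 5 lower under BPS, and 1 higher and 8 lower under E2. Of all genes, 10.9% were higher under 2,4-BPS, 19.4% under BPSIP, 9.32% under BPS (7.5% lower) and 10.4% under E2 (10.6% lower). Their summed level ranged over 1423 to 1474 CPM in control, 1981 to 2090.0 under 2,4-BPS, 2188 to 2444 under BPSIP, 1376 to 1472 under BPS and 1266 to 1329 under E2. In exposed males the sum was 728 to 755 CPM under 2,4-BPS, 792 to 848 under BPSIP, 807 to 813 under BPS and 902 to 966 under E2, and 1296 to 1380.0 in the libraries labelled male control. Male E2, with the lowest class II levels, thus had the highest macrophage sum of the exposed males. None of the 14 genes was at 0 counts in any group.

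Dendritic cell genes, 10 in all, were at a summed 12.8 to 14.3 CPM in female control and 21.0 to 23.0 under BPSIP, with 0 higher and 1 lower under 2,4-BPS and 4 higher under BPSIP. Of 8 B cell genes none was higher under either compound, and 5 were lower under BPS (7.5% of all genes). Their sum was 8.40 to 9.46 CPM in female control, 9.49 to 11.2 under 2,4-BPS, 8.01 to 9.88 under BPSIP and 2.30 to 4.38 under BPS. Monocyte genes rose in 2 of 8 under 2,4-BPS and 5 of 8 under BPSIP, where their sum was 405 to 467 CPM against 181 to 192 in control. Of 8 pan-leukocyte genes 2 were higher under 2,4-BPS and 7 under BPSIP, with sums of 212 to 235, 243 to 263 and 338 to 361 CPM in control, 2,4-BPS and BPSIP. Of 7 T cell genes 0 and 3 were higher and of 7 tested neutrophil genes 4 were lower and 5 higher, under 2,4-BPS and BPSIP respectively. Of 9 sinusoidal endothelial genes 3 were higher under 2,4-BPS, and 1 was higher and 7 lower under BPSIP. In the same order of compounds, 2 and 3 of 4 plasma cell genes and 2 and 3 of 6 NK cell genes were higher. Of 7 stellate cell genes 2 were higher under 2,4-BPS, and 2 were higher and 4 lower under BPSIP, 0 of 6 cholangiocyte genes changed, and of 7 hepatocyte genes 3 were higher under 2,4-BPS and 2 lower under BPSIP. For reading these counts, 10.9% of all genes were higher and 8.42% lower under 2,4-BPS, and 19.4% and 19.2% under BPSIP, so small counts lie near the background. Over the 10 group means, r with the members was 0.935 for the monocyte list, 0.923 for T cells, 0.917 for macrophages, 0.916 for pan-leukocyte genes, 0.881 for dendritic cells, 0.814 for B cells and 0.322 for sinusoidal endothelium, as a description over points that share sex and depth. The part of these cell types in the class II levels was not tested.

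Relative to the macrophage, pan-leukocyte and dendritic lists, too, the members were higher in female 2,4-BPS and BPSIP livers. Their summed CPM was 464 ± 8.06 in female control, 882 ± 10.7 under 2,4-BPS and 1900.0 ± 109 under BPSIP. Divided by the macrophage sum of the same library, it was 0.327, 0.319 and 0.312 in control, 0.442, 0.438 and 0.428 under 2,4-BPS and 0.827, 0.836 and 0.832 under BPSIP. The 3 groups did not overlap, and over this list BPS (0.289, 0.303 and 0.276) and E2 (0.258, 0.297 and 0.276) lay below control. Over the pan-leukocyte sum the quotient was 2.06 ± 0.0730 in control, 3.52 ± 0.104 under 2,4-BPS, 5.43 ± 0.157 under BPSIP, 2.21 ± 0.107 under BPS and 1.78 ± 0.115 under E2 (SD, n = 3). Over the dendritic sum it was 34.5 ± 2.06, 62.5 ± 5.58, 86.7 ± 1.65, 37.7 ± 5.98 and 26.5 ± 3.81 in the same order. The BPS means thus lay above control over these 2 lists, with overlapping libraries, and the E2 means below. Quotients over the other lists, those of monocytes and B cells among them, were not taken, so these directions hold for the lists shown. In males the quotient over the macrophage sum was 0.288 ± 0.00849 under 2,4-BPS, 0.276 ± 0.0177 under BPSIP, 0.249 ± 0.00535 under BPS and 0.122 ± 0.00277 under E2, and 0.197 ± 0.00751 in the libraries labelled male control. Those libraries lay below the 3 bisphenols and above E2 on this quotient, while the members' own levels were mostly lower under the bisphenols than in them.

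**Figure D5:**
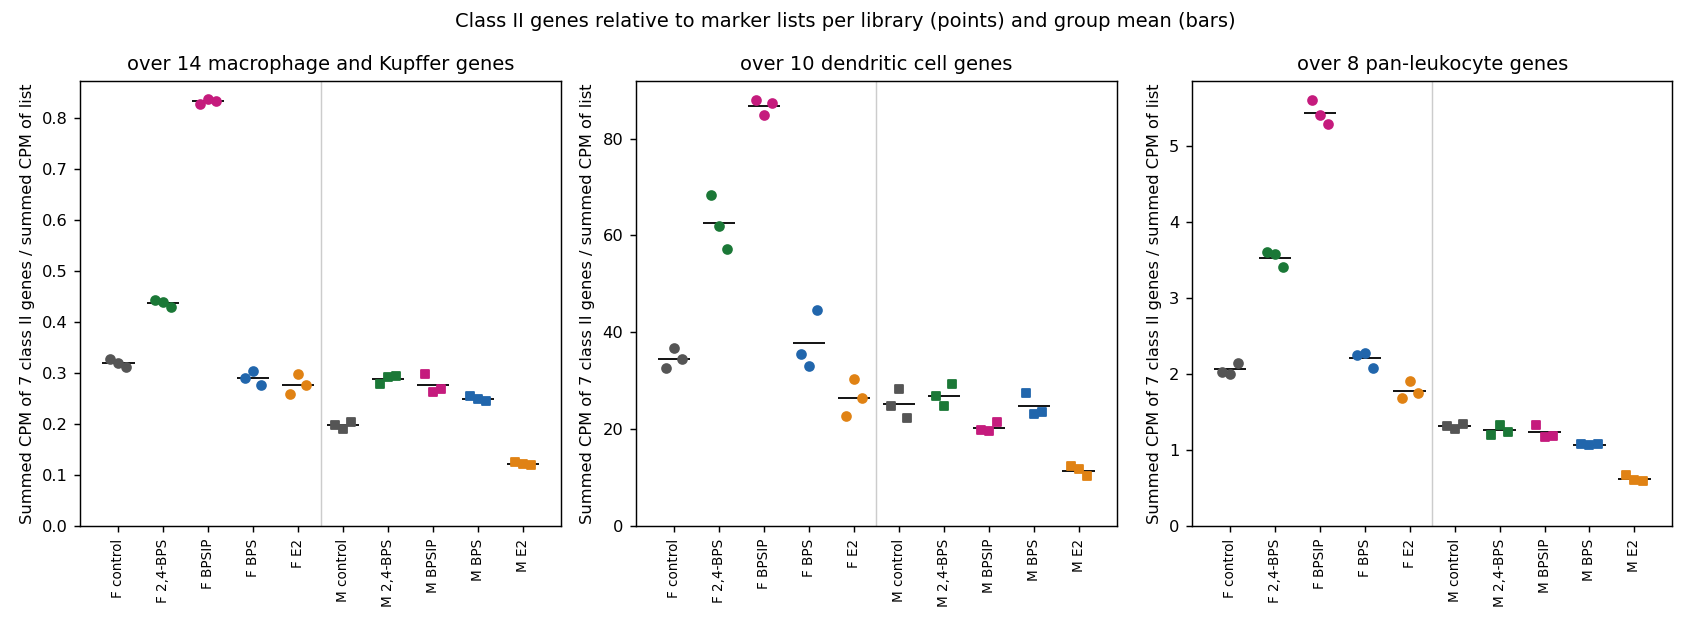
Summed CPM of the 7 class II genes divided by the summed CPM of macrophage and Kupffer, dendritic cell or pan-leukocyte genes in the same library (points, 3 livers per group) with group means as bars; circles are females and squares males. Female BPSIP and female 2,4-BPS lie above female control in all 3 panels, at means of 0.832, 0.436 and 0.320 in the first.

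The genes whose group means most resembled those of the members were found by Pearson's r over the 10 group means, among 11716 genes of at least 1 CPM. They were Fgd3 (0.991), Parvb (0.981), Tifab (0.980), Ppp1r18 (0.978), Tfec (0.977) and Sh3kbp1 (0.976). Fgd3 ran from 1.02 CPM in male E2 over 2.36 in female control to 4.54 in female BPSIP, a narrower span than that of any member. The group means share sex and library depth with those of the members, and r is a description with no test.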

How the data were processed

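Liver RNA-seq libraries of 30 offspring were used, 3 per group. The authors deposited read counts per gene and FPKM values. HISAT2, HTSeq, DESeq2 and R 3.2.0 are named in the submitters' processing notes; their other versions, the build, the annotation and the handling of strand are not stated there. Counts were tested in R 4.3.3 with edgeR 4.0.16 (filterByExpr, TMM factors, quasi-likelihood test, Benjamini-Hochberg adjustment over all genes of a fit at 0.05), with 13874 genes in 15 female libraries, 13474 in 15 male libraries and 14131 in 30 for differences between sexes. DESeq2 1.42.0, RLE factors, no filter, a replicate block, other sets of libraries, other references for males and leaving out each library were tried. The procedure was tested on simulated data. Deposited FPKM served for ratios between genes. Replicate libraries differed beyond sampling noise, with a chi-square per degree of freedom of 5.45 to 22.4. The members and all gene lists were chosen with earlier results of these data known. Named pathway genes were the 2 per list with the smallest joint p in each sex, plus class II chains, and the 6 genes most like the members; Ifng, A1bg and Cyp2b9 were named after their values were seen. No column of another sample was used.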

Additional observations from a re-analysis of the deposited data

Results flagged for a closer look

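The effect of each exposure differed between the sexes by a test of the difference itself (edgeR's quasi-likelihood test, Benjamini-Hochberg adjusted). The values are the female log2 change against control minus the male one, and every male change rests on the 3 libraries labelled male control. For 2,4-BPS the difference was 1.15 for Cd74, 1.05 for H2-Ab1, 1.79 for H2-Eb1, 1.22 for H2-Aa, 1.67 for H2-DMa, 1.89 for H2-DMb1 and 2.01 for Ciita. For BPSIP the difference was 2.13 for Cd74, 1.97 for H2-Ab1, 2.56 for H2-Eb1, 2.51 for H2-Aa, 2.399 for H2-DMa, 2.46 for H2-DMb1 and 2.78 for Ciita. For BPS the difference was 0.66 for H2-Eb1, 0.40 for H2-Aa and 0.95 for H2-DMb1. For E2 the difference was 0.87 for Cd74, 0.89 for H2-Ab1, 1.10 for H2-Aa, 1.06 for H2-DMa, 1.61 for H2-DMb1 and 0.96 for Ciita. With the other 3 exposures of the same sex as reference, 2 members were called for 2,4-BPS and 7 for BPSIP in the same direction, and 7 for BPS and 4 for E2 in the opposite one. These values cancel out over the exposures of a gene by construction, so the lower ones mirror the higher ones. They do not measure a change against control, and shares over all genes are not given for this reference.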

How the results depend on the processing

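Member values kept their direction and their side of the adjusted p of 0.05 in 186 of 190 cases with DESeq2, where 2 calls were lost and 2 gained, in 188 of 190 with RLE in place of TMM factors, and in 190 of 190 without the filter on low counts. Of 153 values refitted on the compared groups alone 148 did so, as did 126 of 132 in a fit of 30 libraries and 1337 of 1383 when a single library was left out. No value in these settings was called in opposite directions. With the replicate number as a block, 190 of 190 member values kept direction and side. The numbers do not pair the samples: in 0 of 25 pairs of groups were all 3 correlations of same-numbered libraries over 0.1. In a fit of 30 libraries, 1 member was higher under BPS in females and 2 were lower in 2,4-BPS against BPS in males. For BPS against E2 in females, 1 member was higher with the compared groups alone, and 2 were lower with RLE factors and with DESeq2. DESeq2 called 1 member higher in BPSIP against BPS in males.

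With the mean of the other 3 exposures of the same sex as reference, the members called were 0 higher and 6 lower for BPS in females, 7 lower for E2 in females, 3 higher and 1 lower for 2,4-BPS in males, 4 higher and 0 lower for BPSIP in males, 3 higher and 0 lower for BPS in males, 2 higher for 2,4-BPS (female minus male effect), 0 higher and 7 lower for BPS (female minus male effect) and 0 higher and 4 lower for E2 (female minus male effect). With this reference the values of a gene cancel out over the exposures by construction, so a high or low group shifts the others. They rank the compounds and do not measure a change against control, and shares over all genes are not given for this reference. The values (log2) that turned their sign with this reference were -0.77 for H2-Eb1 and -0.12 for H2-DMb1 for BPS in females. For E2 in females they were -0.98 for Ciita and -0.74 for H2-DMb1. For 2,4-BPS in males they were 0.34 for H2-Aa, 0.36 for Cd74, 0.19 for H2-DMa and 0.17 for H2-DMb1. For BPSIP in males they were 0.28 for H2-Aa, 0.36 for H2-Ab1, 0.34 for Cd74, 0.41 for Ciita and 0.060 for H2-DMa. For BPS in males they were 0.22 for H2-Aa, 0.020 for H2-Ab1, 0.021 for H2-Eb1, 0.22 for Cd74, 0.0060 for Ciita, 0.20 for H2-DMa and 0.89 for H2-DMb1. For 2,4-BPS (female minus male effect) they were -0.11 for H2-Aa. For BPS (female minus male effect) they were -1.21 for H2-Aa, -0.82 for H2-Eb1 and -1.04 for H2-DMb1. For E2 (female minus male effect) they were -0.28 for H2-Aa, -0.051 for H2-Ab1, -0.26 for Cd74, -0.75 for Ciita, -0.44 for H2-DMa and -0.15 for H2-DMb1. After mixing exposed males with female control counts, which raises the members' sum by construction, the members called were 3 higher and 1 lower for 2,4-BPS in males, 3 higher and 1 lower for BPSIP in males, 3 higher and 0 lower for BPS in males and 1 higher and 2 lower for E2 in males. The values (log2) that then turned their sign were 0.16 for H2-Aa, 0.031 for H2-Eb1, 0.29 for Cd74 and 0.034 for Ciita for 2,4-BPS in males. For BPSIP in males they were 0.14 for H2-Aa, 0.53 for H2-Ab1, 0.28 for Cd74 and 0.22 for Ciita. For BPS in males they were 0.12 for H2-Aa, 0.44 for H2-Ab1, 0.16 for H2-Eb1, 0.24 for Cd74 and 0.095 for Ciita. For E2 in males they were 0.23 for H2-Ab1 and 0.032 for Ciita. Without a single library, 0 to 2 members were higher for BPS in females, 1 to 2 members were lower for BPS in females, 1 to 4 members were higher for BPS vs E2, Female, 1 to 2 members were lower for BPS vs E2, Female, 0 to 1 members were higher for 2,4-BPS vs BPSIP, Male and 1 to 2 members were higher for BPSIP vs BPS, Male. Changes (log2) that crossed 0 ran from -0.072 to 0.021 for H2-Aa (BPS in females), -0.23 to 0.084 for H2-DMa (E2 in females), -0.090 to 0.18 for H2-DMb1 (E2 in females), -0.26 to 0.055 for H2-DMa (BPS vs E2, Female) and -0.014 to 0.14 for H2-Ab1 (2,4-BPS in males), none of them called with all libraries. The cause of these changes was not tested. Ciita and H2-DMb1 had few counts in males, 0.796 to 2.10 and 1.15 to 3.67 CPM in exposed livers.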
